A study of Homo sapiens with 3 samples.

Results

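The 10 genes described here encode enzymes of glycolysis and lactate formation, HK1, HK2, GPI, PFKP, ALDOA, GAPDH, PGK1, ENO1, PKM and LDHA. They were chosen by symbol, and all 10 are among the 36601 genes counted in the deposited matrices. All cells came from UCLA1, a human embryonic stem cell line, kept in a culture named GiMO beneath Geltrex, an extract of basement membrane, and collected at day 1, day 2 or day 3. Each day is a single droplet library, so day, library and any preparation batch cannot be told apart, and differences between days come without replicates or p-values. The series title concerns a timed response to BMP4, but the labels used here give neither a dose nor a schedule for it. No other cell line, genotype or untreated control is among the groups.

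Glycolysis splits glucose into pyruvate in the cytosol and yields ATP without oxygen. Hexokinases (HK1, HK2) trap glucose as glucose 6-phosphate, GPI isomerises it, the phosphofructokinase PFKP commits it, and the aldolase ALDOA cleaves the product into triose phosphates. GAPDH and PGK1 form the first ATP of the payoff phase, ENO1 and PKM carry the carbon to pyruvate, and LDHA reduces pyruvate to lactate. Primed human pluripotent stem cells are known for high glycolytic activity, and hypoxia-inducible factors and MYC are textbook activators of these genes.

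The promoters of HK2, PFKP, PKM, LDHA and GAPDH are shown because these are the 5 members with a call between days or cell classes below. Where a gene has several windows, the one with the lowest coordinates is given. Each window runs from 250 bases before to 50 bases after a transcript start, from RefSeq on GRCh38.p14, 5′ to 3′ on the gene's strand. Capitals mark ACGTG or GCGTG on either strand, the core letters of the hypoxia response element, so that CACGTG holds an overlapping match on both strands. The windows are HK2 at chr2:74833877-74834176 on the plus strand, PFKP at chr10:3067720-3068019 on the plus strand, PKM at chr15:72231141-72231440 on the minus strand, LDHA at chr11:18394313-18394612 on the plus strand and GAPDH at chr12:6535014-6535313 on the plus strand.
HK2: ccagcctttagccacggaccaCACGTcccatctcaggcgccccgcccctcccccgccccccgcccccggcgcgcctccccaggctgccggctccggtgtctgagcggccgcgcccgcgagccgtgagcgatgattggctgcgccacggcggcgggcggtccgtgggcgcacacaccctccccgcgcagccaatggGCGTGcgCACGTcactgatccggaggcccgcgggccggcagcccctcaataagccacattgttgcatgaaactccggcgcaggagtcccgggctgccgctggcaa
PFKP: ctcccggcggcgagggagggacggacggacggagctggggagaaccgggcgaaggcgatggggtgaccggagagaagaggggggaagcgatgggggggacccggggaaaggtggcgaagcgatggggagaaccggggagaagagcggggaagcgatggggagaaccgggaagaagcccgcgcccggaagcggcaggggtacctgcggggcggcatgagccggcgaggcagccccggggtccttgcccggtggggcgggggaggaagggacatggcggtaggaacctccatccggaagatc
PKM: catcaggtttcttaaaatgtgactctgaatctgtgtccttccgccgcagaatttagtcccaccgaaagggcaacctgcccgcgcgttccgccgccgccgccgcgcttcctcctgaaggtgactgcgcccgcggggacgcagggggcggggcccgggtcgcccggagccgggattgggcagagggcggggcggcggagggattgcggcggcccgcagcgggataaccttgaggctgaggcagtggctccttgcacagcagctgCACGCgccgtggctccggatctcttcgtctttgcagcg
LDHA: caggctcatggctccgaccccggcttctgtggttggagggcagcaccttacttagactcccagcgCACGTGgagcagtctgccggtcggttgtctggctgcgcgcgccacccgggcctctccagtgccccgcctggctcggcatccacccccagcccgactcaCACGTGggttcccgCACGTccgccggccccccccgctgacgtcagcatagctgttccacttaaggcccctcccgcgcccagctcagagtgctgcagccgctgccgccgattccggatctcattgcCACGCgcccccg
GAPDH: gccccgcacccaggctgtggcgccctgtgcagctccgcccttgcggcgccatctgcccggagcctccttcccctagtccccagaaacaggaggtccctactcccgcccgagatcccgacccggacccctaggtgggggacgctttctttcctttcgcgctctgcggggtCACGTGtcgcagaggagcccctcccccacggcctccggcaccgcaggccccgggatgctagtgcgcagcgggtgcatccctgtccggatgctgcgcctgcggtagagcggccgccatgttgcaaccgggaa
Counting each strand, the LDHA window held 5 matches to ACGTG and 1 to GCGTG, the HK2 window 2 and 1, the GAPDH window 2 and 0, the PKM window 0 and 1, and the PFKP window 0 of either. Of windows not shown, the second of HK2 held 4 and 2, the second of LDHA 0 and 1, and the other 3 of PFKP 0 and 0, 1 and 0, and 0 and 3. The 10 genes have 23 such windows, some of which overlap. ACGTG was in 10 of the 23 (43.5%), GCGTG in 10 (43.5%) and either motif in 16 (69.6%). Of 35116 windows of all genes, 21.4% held ACGTG, 36.5% GCGTG and 48.4% either. A match is a description of these letters and does not show that a factor binds there.

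After filtering, the day 1, day 2 and day 3 libraries held 3533, 7224 and 6804 cells with medians of 41550, 15653.5 and 19227.5 unique molecular identifiers (UMIs, each standing for 1 captured RNA molecule). The libraries shared between 9 and 21 cell barcodes pairwise. Levels are CPM, the share of a group's summed UMIs that a gene holds, in parts per 1000000. They are not scaled for transcript length, and levels are compared for 1 gene between groups, not between genes. Intervals in parentheses are 95% and cover counting error only. A gene is called higher or lower where the ratio is past 1.5-fold, its interval excludes 1 and the higher group has at least 10 CPM. Mitochondrial genes took 4.60%, 4.38% and 3.59% of UMIs and ribosomal protein genes 24.1%, 20.2% and 19.8% at days 1, 2 and 3. Calls were also made with a total without these genes, and their part in the differences by day was not otherwise tested. In sums over a library, fewer cells of a type and less RNA per cell cannot be told apart.

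HK2 and PFKP, of the upper steps of the pathway, were highest at day 3, PFKP after a low at day 2. GAPDH fell over the 3 days, and PKM was lower at day 2 than at day 1. The summed level of the 10 genes was 6868 CPM at day 1, 5070 CPM at day 2 and 4814 CPM at day 3. Most of that difference lay in GAPDH, which held 60.0%, 54.7% and 45.1% of the summed UMIs. The other 9 together were at 2747, 2299 and 2643 CPM, lowest at day 2.

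Among the enzymes of the upper steps, PFKP and HK2 rose late. HK2, the inducible hexokinase, was at 11.3 CPM at day 1 (10.8 to 11.9), 13.7 at day 2 (13.1 to 14.4) and 24.4 at day 3 (23.6 to 25.2). At day 3 it was 1.78-fold higher than at day 2 (1.67 to 1.89) and 2.15-fold higher than at day 1 (2.03 to 2.28). The order over days has no overlapping neighbours. HK1, the constitutive hexokinase, was at 123, 119 and 147 CPM and passed no call. PFKP, the platelet-type phosphofructokinase, was at 62.7 CPM at day 1, 43.0 at day 2 and 95.7 at day 3. It is lowest at day 2, and its day 3 level was 2.23-fold that of day 2 (2.16 to 2.30) and 1.53-fold that of day 1 (1.49 to 1.57). The last call was lost when libraries were scaled by TMM (log2 0.30) or by median of ratios (0.34). It was also lost with a total without mitochondrial and ribosomal protein genes (0.51). GPI, which interconverts the hexose 6-phosphates, was at 107 CPM at day 1, 107 at day 2 and 87.8 at day 3, with no call. ALDOA was at 15.3, 14.7 and 14.6 CPM with overlapping intervals. Its level is uncertain, since 42.8% of its exon bases are shared on the same strand with AC093512.2 in GENCODE release 44, a gene counted separately at 0.40, 0.57 and 0.86 CPM, and reads in the shared part may be counted for neither.

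**Figure D1:**
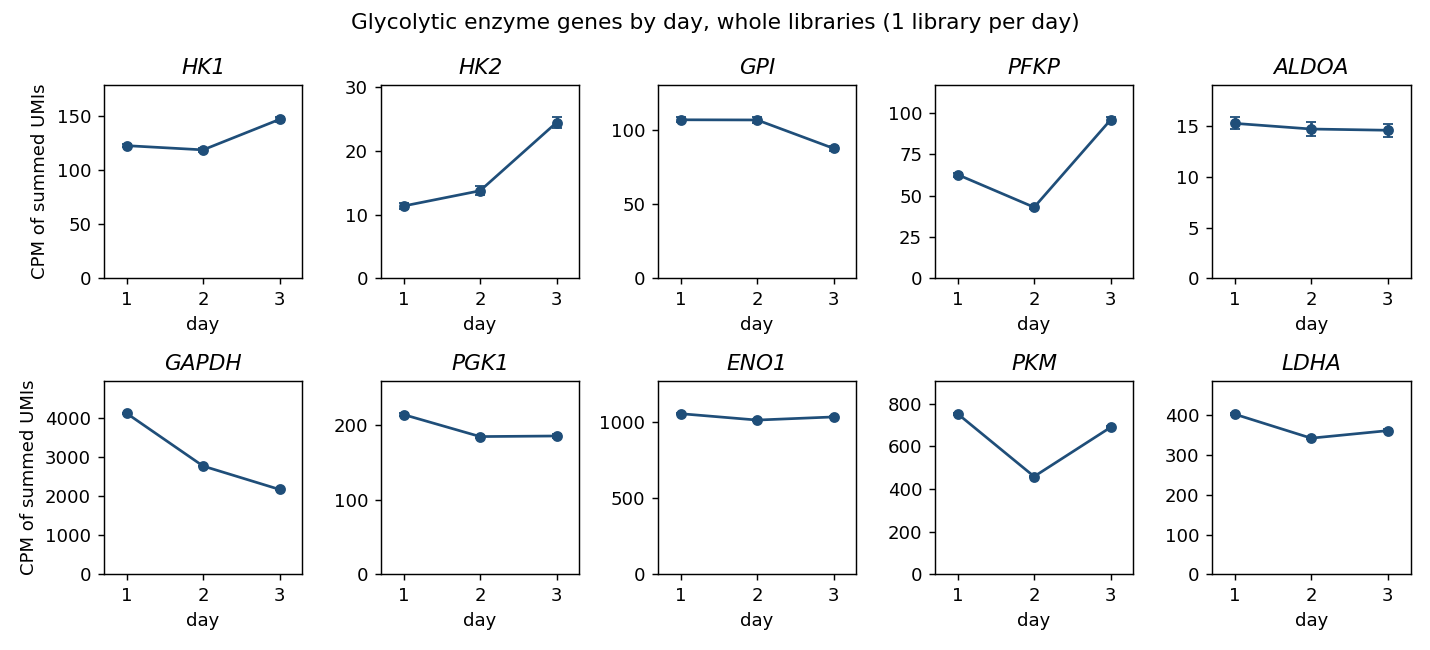
Levels of the 10 enzyme genes in whole libraries, with CPM of summed UMIs on the vertical axes from 0 and the day on the horizontal axes. Points are 1 library each and bars are 95% counting intervals, mostly smaller than the points. GAPDH is lower at each later day, HK2 is higher at day 3, and PFKP and PKM are lowest at day 2.

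Of the lower enzymes GAPDH fell and PKM dipped, while the rest differed little. GAPDH, the triose phosphate dehydrogenase, was at 4121 CPM at day 1, 2771 at day 2 and 2172 at day 3. It was 1.49-fold lower at day 2 than at day 1 (1.48 to 1.49), just short of a call, and 1.90-fold lower at day 3 than at day 1 (1.89 to 1.91), which is called. An antisense gene, AC006064.4, overlaps 17.6% of its exon bases, with 3.43, 4.70 and 4.25 CPM of its own. PKM, the pyruvate kinase whose splice forms these counts cannot separate, was at 753 CPM at day 1 (749 to 757), 459 at day 2 (455 to 463) and 690 at day 3 (685 to 694). It fell 1.64-fold at day 2 against day 1 (1.63 to 1.66). Day 3 stood 1.503-fold above day 2 (1.49 to 1.52), and that call was lost without mitochondrial and ribosomal protein genes in the total (log2 0.56) and in cells with at most 10% mitochondrial UMIs (log2 0.56). PGK1, the phosphoglycerate kinase, was at 214, 185 and 186 CPM. ENO1, the ubiquitous enolase, was at 1057, 1015 and 1036 CPM, and LDHA at 403, 343 and 362 CPM. None of those 3 passed a call between any pair of days.

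The calls were read against those over all genes. Between day 2 and day 1, 0 of 10 members were called higher and 1 lower (PKM), where 17.4% of 9716 genes tested were called higher and 5.33% lower. The members' median log2 ratio was −0.14, against 0.22 for all genes, and 1 of 10 stood above that all-gene median. Between day 3 and day 2, 3 of 10 were higher (HK2, PFKP, PKM) and 0 lower, against 12.3% of genes higher and 12.2% lower. The members' median was 0.05, the same as the all-gene median of 0.05. Between day 3 and day 1, 2 of 10 were higher (HK2, PFKP) and 1 lower (GAPDH), against 31% and 15% of genes, and the medians were −0.10 for the members and 0.27 for all genes. These 3 comparisons share libraries and are not independent of each other.

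Scaling mattered for the step to day 2. With the library total the median of all genes was 0.22 at day 2 over day 1, and with TMM it was −0.10. Measured from the all-gene median, PKM stood at −0.94, GAPDH at −0.79 and PFKP at −0.77 in that comparison, and HK2 at 0.05. With TMM, PFKP (log2 −0.87) and GAPDH (−0.90) were called lower along with PKM (−1.04), and HK2's log2 ratio changed sign to −0.05. HK1 at day 3 over day 1 likewise changed sign, with 0.26 by the total and −0.05 by TMM. At day 3 over day 2 the scalings gave nearly the same values, for example 1.15 and 1.17 for PFKP.

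**Figure D2:**
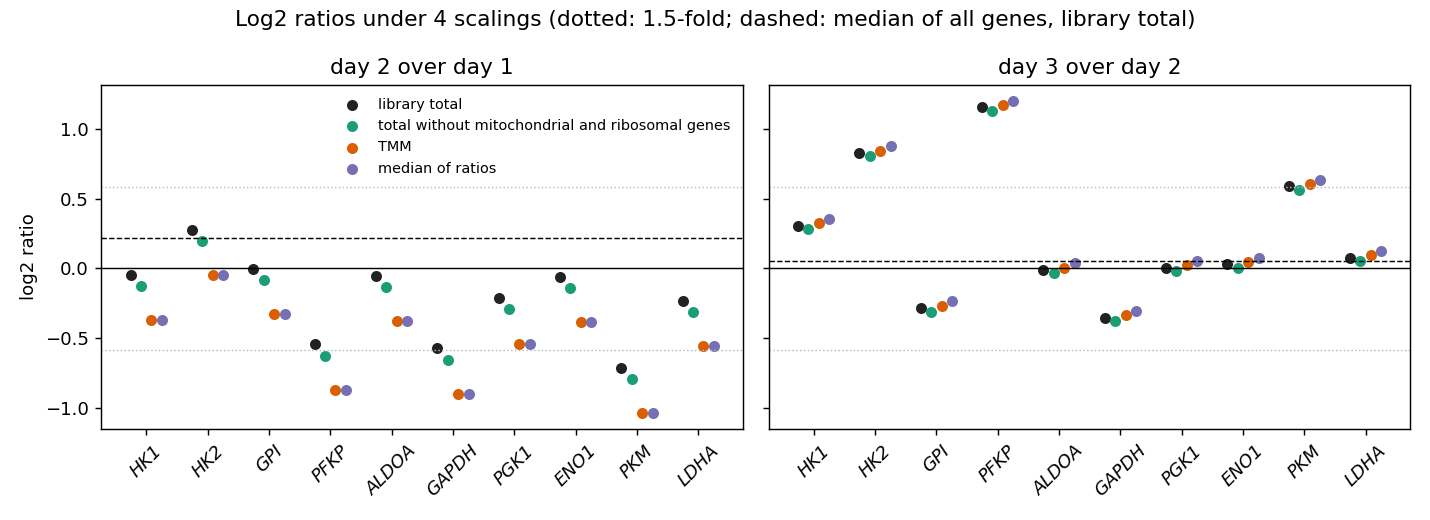
Log2 ratios of the 10 enzyme genes for day 2 over day 1 (left) and day 3 over day 2 (right), with 1 point per gene and scaling. Dotted lines mark 1.5-fold and the dashed line the median of all genes with the library total. The TMM and median-of-ratios points lie below the library-total points for day 2 over day 1, and the scalings nearly coincide for day 3 over day 2.

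To set the enzymes against cell state, cells were classed from UMIs of 4 genes after each cell had been thinned at random to 5000 UMIs. Cells with a UMI of MESP1, a factor of early mesoderm, form the mesoderm class. Those with TBXT (brachyury) but no MESP1 form the streak class, and those with SOX2 and none of TBXT, MIXL1 or MESP1 the pluripotent class. The mesoderm, streak and pluripotent classes held 9, 76 and 1845 cells at day 1, 1267, 1218 and 1191 at day 2, and 4148, 399 and 65 at day 3. The 9 mesoderm cells of day 1 were left out, and 1569, 3066 and 2063 cells at days 1, 2 and 3 had no class. Levels within a class use all UMIs of its cells. Classes of 1 day share their library, and cells are not replicates.

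Mesoderm and pluripotency markers that played no part in the definition ran in opposite orders over the classes. Streak markers in sum separated the mesoderm and streak classes little, though single ones did so more. A mesoderm list (MESP2, TBX6, HAND1, LHX1, MSGN1, PDGFRA, APLNR) summed to 1723, 1058 and 68.6 CPM in the mesoderm, streak and pluripotent classes of day 3, and to 406, 63.5 and 11.4 CPM at day 2. A pluripotency list (POU5F1, NANOG, PODXL, UTF1, PRDM14, DPPA4, TDGF1) summed to 649, 1082 and 2369 CPM at day 3 and 1435, 1842 and 2325 CPM at day 2. The streak list (EOMES, FGF8, NODAL, FGF4, WNT3, GSC, SP5) summed to 368, 490 and 310 CPM at day 3, so it separates the day 3 streak and pluripotent classes less than at day 2 (636, 699 and 238 CPM). At day 2 EOMES was at 144 CPM in mesoderm and 134 in streak cells and GSC at 26.4 and 14.9 CPM, while NODAL was at 161 and 226 CPM. At day 3 NODAL was at 20.9 CPM in mesoderm and 73.8 in streak cells, FGF4 at 4.35 and 15.3 CPM and FGF8 at 2.15 and 6.27 CPM. EOMES was then at 145 and 147 CPM and GSC at 14.4 and 10.7 CPM. The streak class of day 3 had more of the mesoderm list than of the streak list, and its MESP1 level over all UMIs was 155 CPM. Of other cell types, amnion markers (ISL1, GATA3, TFAP2A, GABRP) summed to 76.1, 74.1 and 16.2 CPM and definitive endoderm markers (SOX17, FOXA2, PRDM1) to 16.2, 60.5 and 2.95 CPM at day 3. Among blood vessel markers KDR stood at 65.0, 63.4 and 62.0 CPM, while PECAM1 and CDH5 were under 1 CPM in each class. The part of those cells in the enzyme levels was not tested.

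At day 3, PKM and LDHA, the last steps toward lactate, were higher in mesoderm-class than in pluripotent-class cells. PKM was at 718 CPM in mesoderm cells (712 to 724), 580 in streak cells (564 to 597) and 362 in pluripotent cells (331 to 396), and the 3 intervals do not overlap. The mesoderm level was 1.98-fold the pluripotent level (1.81 to 2.17). LDHA was at 381 CPM in mesoderm cells (376 to 385), 304 in streak cells (293 to 316) and 213 in pluripotent cells (189 to 239), with 1.79-fold between mesoderm and pluripotent (1.59 to 2.01). These were the 2 members called higher, with 0 lower, where 12.4% of 10420 genes were called higher and 19.1% lower. Both calls held under every alternative run, and with TMM the log2 ratios were 1.23 and 1.08. PFKP (log2 0.56), HK2 (0.45) and HK1 (0.42) missed the call in that comparison and passed it under TMM and also under median-of-ratios scaling. Here TMM moved the all-gene median to 0.21, against −0.04 with the total. GPI went the other way, at 87.2 CPM in mesoderm cells, 102 in streak cells and 131 in pluripotent cells, 1.497-fold lower in mesoderm than in pluripotent cells (1.28 to 1.74) and just short of the call. GAPDH was at 2228, 2188 and 2609 CPM, and its log2 ratio of −0.23 between mesoderm and pluripotent cells was 0.02 with TMM.

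The pluripotent class of day 3 rests on 65 cells and 1355933 UMIs, of which 491 were PKM and 289 LDHA. Its median depth was 18304 UMIs per cell, against 19621 in mesoderm and 19393 in streak cells. Ribosomal protein genes took 20.3%, 19.1% and 18.9% of UMIs and mitochondrial genes 3.44%, 3.72% and 3.74% in the mesoderm, streak and pluripotent classes. Apart from calls made with a total without ribosomal and mitochondrial genes, the part of depth and of these genes in the class differences was not tested. Streak cells differed from pluripotent cells at day 3 by 1 call higher (PKM, 1.60-fold, 1.46 to 1.76) and 0 lower, where 11.1% and 12.1% of genes were called. That call was lost when classes were set without thinning or after thinning to 10000 UMIs. Between mesoderm and streak cells 0 of 10 members were called in either direction, where 1.04% of genes were higher and 6.18% lower, and the largest ratio was 1.33-fold for HK2 (1.13 to 1.56).

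**Figure D3:**
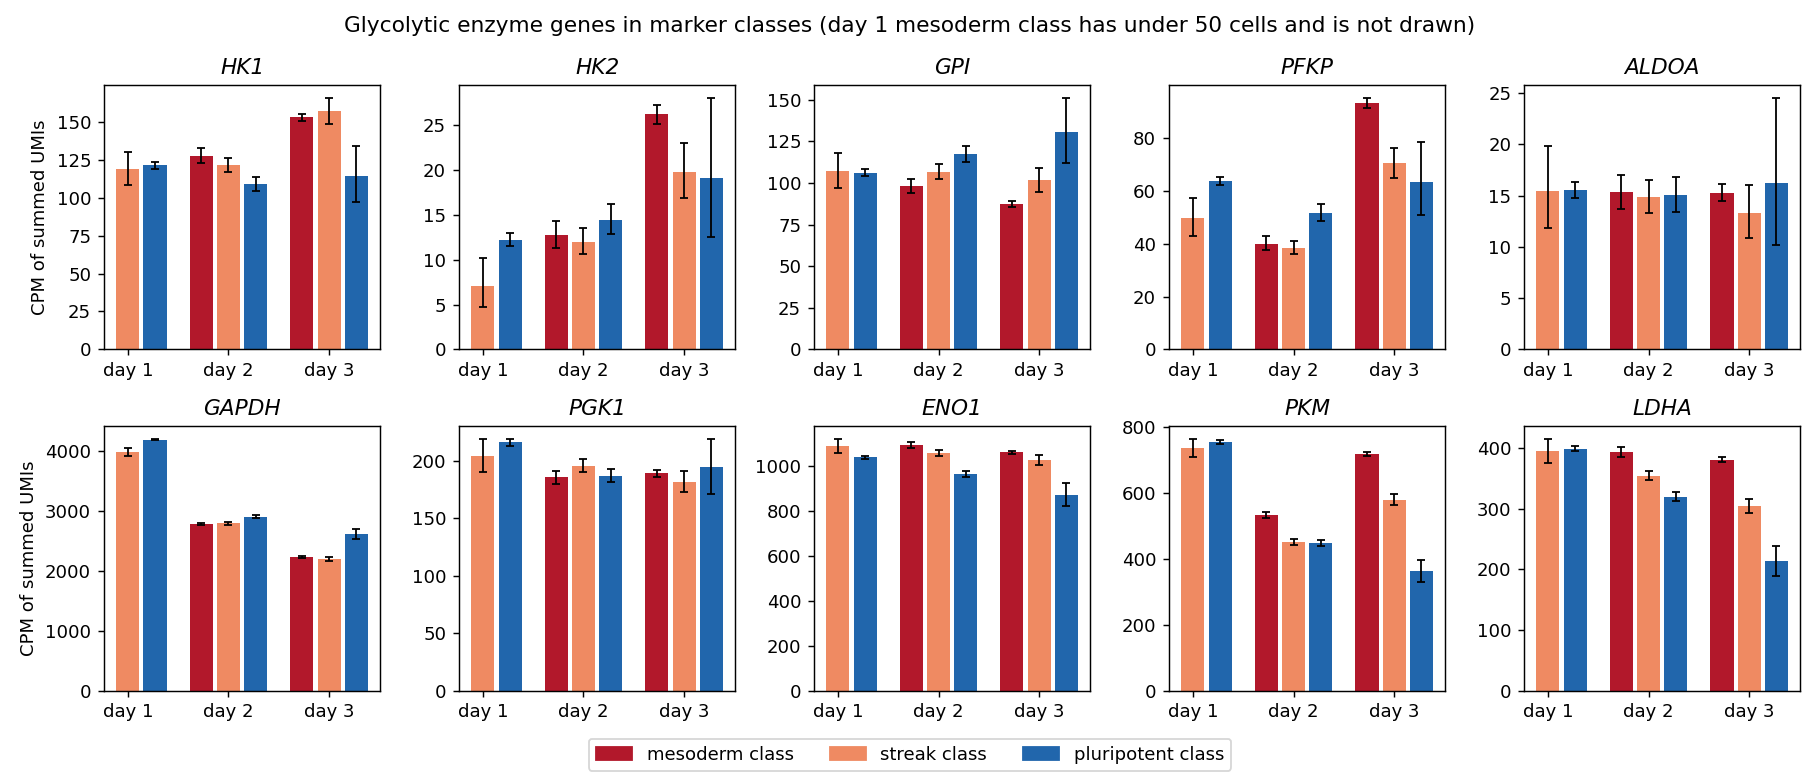
Levels of the 10 enzyme genes by day in the mesoderm, streak and pluripotent marker classes, in CPM of summed UMIs on axes from 0. Bars are 1 class in 1 library with 95% counting intervals, and the day 1 mesoderm class of 9 cells is not drawn. PKM and LDHA step down from mesoderm over streak to pluripotent cells at day 3, and PKM is lower at day 2 than at day 1 in the streak and pluripotent classes.

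At day 2, when the 3 classes were of similar size, LDHA and PKM were again highest in mesoderm cells, but no member was called. Between mesoderm and pluripotent cells 7.32% of 9868 genes were called higher and 9.33% lower, and 0 of 10 members. LDHA was at 393, 355 and 320 CPM in the mesoderm, streak and pluripotent classes, 1.23-fold between the first and last (1.19 to 1.27). PKM was at 533, 452 and 449 CPM, 1.19-fold between mesoderm and pluripotent cells (1.15 to 1.22), while the intervals of the streak and pluripotent classes overlapped. ENO1 was at 1096, 1057 and 965 CPM. PFKP was lower in mesoderm than in pluripotent cells at that day, at 40.0 CPM in mesoderm, 38.4 in streak and 51.7 in pluripotent cells (log2 −0.37 for mesoderm over pluripotent). Between streak and pluripotent cells (4.49% of genes higher, 4.2% lower) and between mesoderm and streak cells (2.56% and 2.98%) 0 members were called as well. At day 1, streak over pluripotent gave 1 call, HK2 lower, where 2.82% of genes were higher and 2.11% lower. HK2 was at 7.09 CPM in the 76 streak cells (4.71 to 10.3, from 28 UMIs) and 12.3 CPM in the pluripotent cells (11.5 to 13.0). PKM (737 and 755 CPM) and LDHA (395 and 399 CPM) did not separate beyond their intervals in the streak and pluripotent cells of day 1.

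Days were also compared within a class, where other markers still differed by day. The mesoderm list was at 1723 CPM at day 3 and 406 at day 2 in the mesoderm class, and at 1058 and 63.5 CPM in the streak class. The streak list in the pluripotent class was at 115, 238 and 310 CPM at days 1, 2 and 3. The part of these differences in the enzyme levels was not tested. PKM fell between day 1 and day 2 in both classes measured. It was at 449 CPM in day 2 and 755 in day 1 pluripotent cells, 1.68-fold lower (1.64 to 1.72), and at 452 and 737 CPM in day 2 and day 1 streak cells, 1.63-fold lower (1.56 to 1.70). Those were the only members called lower, in pluripotent cells where 15.3% of genes were higher and 4.94% lower, and in streak cells where 19.2% and 6.33% were. HK2 was the 1 member called higher, in streak cells (12.03 CPM at day 2, 7.09 at day 1), and with median-of-ratios scaling it was not. GAPDH was 1.44-fold lower in pluripotent cells (1.43 to 1.46) and 1.43-fold lower in streak cells (1.40 to 1.45), short of the call in both.

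Between day 3 and day 2 different members were called in the mesoderm and pluripotent classes. In mesoderm cells HK2 and PFKP were the 2 members called higher and 0 were lower, where 9.61% of genes were higher and 8.86% lower. HK2 was at 26.2 CPM at day 3 and 12.7 at day 2, 2.06-fold higher (1.82 to 2.34), and PFKP at 93.2 and 40.0 CPM, 2.33-fold higher (2.17 to 2.50). In streak cells the same 2 genes were called higher and 0 lower (11.7% and 6.44% of genes), with 1.64-fold for HK2 (1.35 to 2.00) and 1.83-fold for PFKP (1.64 to 2.04). Those streak calls were lost when classes were set without thinning or after thinning to 10000 UMIs. In pluripotent cells 0 were called higher and 1 lower, LDHA, where 6.26% and 2.18% of genes were. It was 1.501-fold lower at day 3 than at day 2 (1.33 to 1.69), a call lost with high doublet scores kept and with the mean of per-cell CPM. PKM was at 718 CPM in day 3 and 533 in day 2 mesoderm cells, but at 362 in day 3 and 449 in day 2 pluripotent cells. Whether the change differs between classes was not tested. PFKP in pluripotent cells was at 63.4 CPM at day 3 (50.7 to 78.3) and 51.7 at day 2 (48.7 to 54.8), with overlapping intervals.

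Cells grouped by the number of MESP1 UMIs after thinning, within a library, gave a finer view. At day 3, LDHA was at 331, 360, 380 and 401 CPM in cells with 0, 1, 2 and at least 3 MESP1 UMIs (2527, 1512, 1034 and 1602 cells), each step larger than the counting intervals. PKM was at 643 CPM with 0 and between 700 and 729 CPM with any MESP1 UMI. PFKP was lower with 2 or more MESP1 UMIs than with fewer, at 99.9, 102, 90.5 and 86.6 CPM. GAPDH was at 2084, 2112, 2227 and 2339 CPM. At day 2 PKM was at 446, 518, 524 and 569 CPM and LDHA at 336, 388, 397 and 400 CPM over the same bins (5475, 599, 301 and 367 cells), while GAPDH was lowest in the last bin, at 2613 CPM.

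At day 3 LDHA, PKM and PFKP were highest in the cells without TBXT. PFKP was at 102, 80.7, 55.9 and 58.3 CPM in cells with 0, 1, 2 and at least 3 TBXT UMIs (5268, 1066, 247 and 94 cells). PKM was at 708, 650, 569 and 525 CPM and LDHA at 371, 341, 305 and 292 CPM over the same bins. HK1 ran upward, at 143, 158, 167 and 167 CPM. SOX2 marked few cells at day 3. In the 100 cells with 1 SOX2 UMI, PKM was at 389 CPM (364 to 415) and LDHA at 250 CPM (230 to 271), against 698 and 365 CPM in the 6532 cells without one. Over the SOX2 bins of day 1 PKM was between 720 and 762 CPM. HK2 was at 10.5 CPM (9.73 to 11.2) with 0 SOX2 UMIs and 14.9 CPM (12.9 to 17.2) with at least 3. ENO1 was at 1084 and 990 CPM in the same 2 bins.

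**Figure D4:**
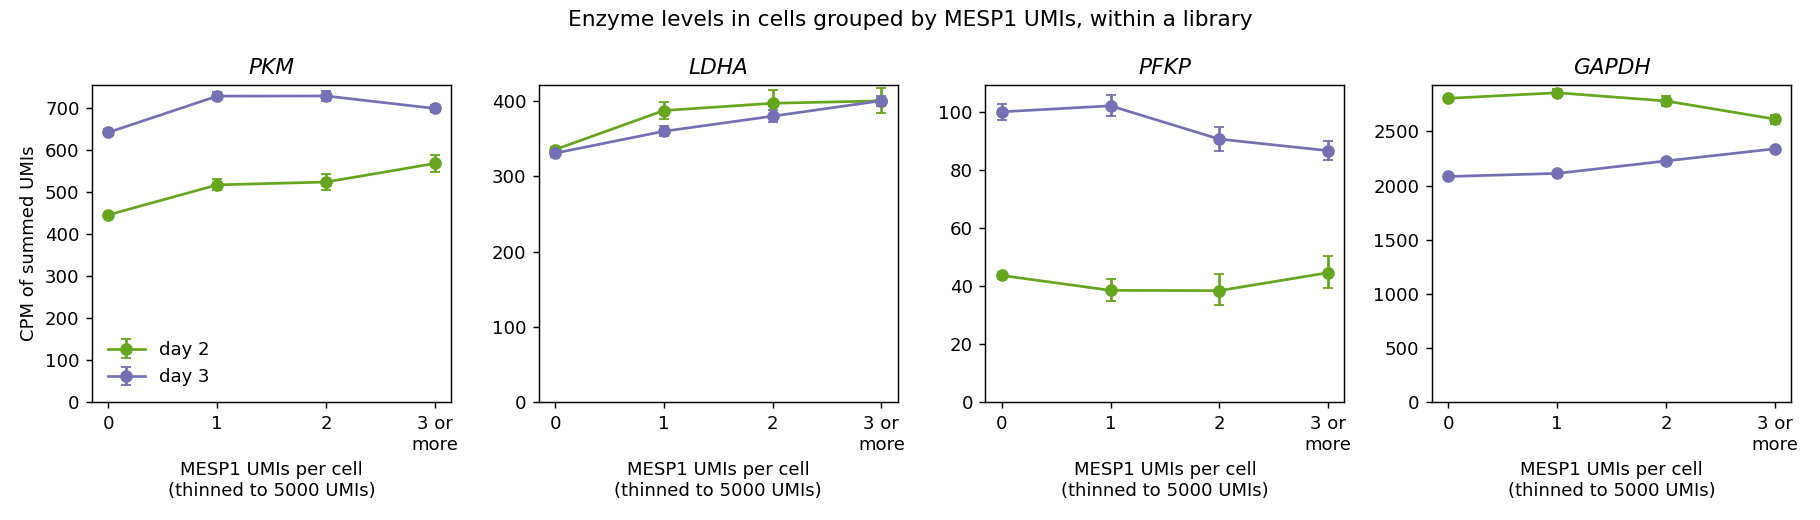
Levels of PKM, LDHA, PFKP and GAPDH in cells grouped by MESP1 UMIs after thinning to 5000 UMIs, at day 2 and day 3, in CPM of summed UMIs on axes from 0 with 95% counting intervals. LDHA is higher in each bin with more MESP1 at day 3, while at day 2 the intervals of the bins with any MESP1 UMI overlap. PFKP at day 3 lies above PFKP at day 2 in every bin.

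Cells outside the 3 classes carried the enzymes too. At day 3 the 2063 unclassed cells had a PFKP level of 107 CPM, against 93.2 in mesoderm, 70.3 in streak and 63.4 in pluripotent cells. Their PKM level was 665 CPM and their LDHA level 340 CPM, both between the mesoderm and streak classes. Levels were also read by depth within a library. Over equal groups of the shallowest, middling and deepest cells PKM was at 683, 736 and 784 CPM at day 1, 404, 449 and 484 CPM at day 2, and 673, 687 and 699 CPM at day 3. PFKP was at 60.3, 62.7 and 63.4 CPM at day 1, 39.4, 43.1 and 44.2 CPM at day 2, and 91.0, 94.4 and 98.5 CPM at day 3. The depth groups of a day do not reach the range of another day for PFKP, and those of PKM at day 2 lie below those of both other days. The PKM ranges of days 1 and 3 overlap. LDHA was at 357 CPM in the deepest cells of day 2 and 352 CPM in the shallowest of day 3. The part of depth in the differences by day was not tested.

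Of 6 measured genes among the remaining isozymes and steps of the pathway, 0 were called higher and 1 lower at day 3 against day 1, where 31% of all genes were higher and 15% lower. Their median log2 ratio was −0.36. TPI1, which interconverts the triose phosphates, was at 761, 549 and 543 CPM at days 1, 2 and 3. PGAM1, the phosphoglycerate mutase, was at 326, 291 and 252 CPM, and LDHB, which favours lactate oxidation, at 884, 1133 and 938 CPM. The phosphofructokinase PFKL was at 33.6, 25.5 and 26.3 CPM and PFKM at 11.5, 14.1 and 15.7 CPM, so the rise at day 3 seen for PFKP was not called for either. ENO2, the neuronal enolase, was the 1 lower gene, at 4.30 CPM at day 3 and 14.6 at day 1, 3.38-fold lower (3.09 to 3.71). ALDOC was at 9.83, 11.2 and 8.29 CPM. HK3, HKDC1, GAPDHS, PGK2, PGAM2, ENO3, PKLR and LDHC were below the minimum of 10 CPM at every day.

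Of 5 transport genes measured at day 3 against day 1, 0 were higher and 2 lower (31% and 15% of all genes), and their median log2 ratio was −0.57. BSG, the chaperone of lactate transporters, was at 197 CPM at day 3 and 312 at day 1, and SLC2A14, a glucose transporter closely similar in sequence to SLC2A3, at 2.07 and 10.3 CPM. SLC2A3, the GLUT3 transporter, was at 122 CPM at day 3 and 192 at day 2, 1.57-fold lower (1.54 to 1.60), which is called. SLC2A1, the GLUT1 transporter, was at 54.2 CPM at day 3 and 79.5 at day 2, short of a call. In mesoderm-class against pluripotent-class cells of day 3, 2 of 4 measured transport genes were lower and 0 higher. The shares of all genes were 19.1% lower and 12.4% higher. SLC2A1 was at 51.2 CPM in mesoderm and 81.9 in pluripotent cells, and SLC2A3 at 103 and 170 CPM. SLC16A1 (202 and 207 CPM) and BSG (196 and 218 CPM) had no call. These calls use the library total, with which the all-gene median log2 ratio was −0.04, against 0.21 with TMM. With that shift, the same for every gene, SLC2A1 and SLC2A3 both fall short of 1.5-fold. The pluripotent class of day 3 has 65 cells. Of 4 flux control genes 2 were higher and 0 lower at day 3 against day 1, beside 31% and 15% of all genes. PFKFB3, which makes the activator of phosphofructokinase, was at 24.8 CPM at day 3 and 11.8 at day 1, and TIGAR, which removes that activator, at 47.6 and 30.5 CPM. With the TMM shift TIGAR falls short of 1.5-fold. PDK3, a brake on pyruvate dehydrogenase, was at 12.3 CPM at day 3 and 19.0 at day 2, called lower.

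Most measured genes of the serine and pentose phosphate branches, which leave glycolysis, were called lower at day 3 against day 1, where 15% of all genes were called lower and 31% higher. All 5 genes of the serine branch were measured, with 0 called higher and 4 lower at day 3 against day 1 and a median log2 ratio of −1.10, against 0.27 for all genes. PHGDH, the entry enzyme, was at 166 CPM at day 3 and 357 at day 1, 2.14-fold lower (2.11 to 2.18), and PSAT1, the aminotransferase, at 113 and 272 CPM, 2.40-fold lower (2.35 to 2.44). PSPH (22.6 and 49.9 CPM) and SHMT2 (65.0 and 102 CPM) were the other 2. Of 7 pentose phosphate genes 1 was higher, RPIA, and 4 lower, and their median log2 ratio was −0.81. With the TMM shift RPIA falls short of 1.5-fold. Among the lower genes, TKT, the transketolase, was at 405 CPM at day 3 and 868 at day 1, TALDO1, the transaldolase, at 105 and 226 CPM, and PGLS at 79.4 and 139 CPM. In mesoderm-class against pluripotent-class cells of day 3, 2 of 7 pentose phosphate genes (TKT, TALDO1) and 3 of 5 serine genes (PHGDH, PSAT1, PSPH) were lower and 0 higher in either list, where 19.1% of all genes were lower and 12.4% higher. TKT was at 392 CPM in those mesoderm cells and 633 in those pluripotent cells, and PSAT1 at 109 and 222 CPM. That pluripotent class has 65 cells. These class calls use the library total, with which the all-gene median log2 ratio was −0.04, against 0.21 with TMM. With that shift, the same for every gene, TKT, TALDO1 and PHGDH fall short of 1.5-fold, while PSAT1 and PSPH stay past it.

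Calls among genes of pyruvate entry into mitochondria were few at day 3 against day 1, beside 31% of all genes higher and 15% lower. Of 8 measured, 1 was higher (DLAT, 46.0 CPM at day 3 and 29.6 at day 1) and 1 lower (MPC2, a subunit of the pyruvate carrier, 57.7 and 89.2 CPM), and the median log2 ratio was 0.35. PDHB was higher at day 2 than at day 1, with 181 and 99.4 CPM. With the TMM shift of each comparison DLAT and PDHB fall short of 1.5-fold. Of 8 glycogen and gluconeogenesis genes 3 were higher at day 3 against day 1, GYS1 (33.3 and 13.7 CPM), PGM1 (45.9 and 20.5 CPM) and PC (12.8 and 5.16 CPM), and 1 lower, PCK2 (16.5 and 40.5 CPM), near the shares of all genes.

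Other targets of hypoxia-inducible factors were called in both directions. Of 14 listed, 8 reached 10 CPM at day 3 or day 1 and so were measured in that comparison. Among them 4 passed the call as higher at day 3 and 2 as lower, beside 31% and 15% of all genes. Their median log2 ratio was 0.87, which depends on which genes reached 10 CPM. MXI1 did so only at day 3, and ADM and DDIT4 only at day 1. EGLN3, an oxygen-sensing prolyl hydroxylase, was at 172 CPM at day 3 and 41.6 at day 1, 4.14-fold higher (4.03 to 4.25), and BNIP3, a mitophagy receptor, at 101 and 26.3 CPM, 3.84-fold higher (3.71 to 3.97). P4HA1 (56.1 and 21.4 CPM) and MXI1 (21.9 and 6.37 CPM) were also higher. ADM, which encodes adrenomedullin, was at 2.83 CPM at day 3 and 102 at day 1, 36.1-fold lower (32.7 to 40.0), and DDIT4 at 5.48 and 24.0 CPM. In mesoderm-class against pluripotent-class cells of day 3, 4 of 9 were higher and 4 lower, where 12.4% of all genes were higher and 19.1% lower. EGLN3 was at 180 CPM in mesoderm and 31.7 in pluripotent cells and BNIP3 at 115 and 39.1 CPM. The 4 lower were ADM (1.38 and 32.5 CPM in mesoderm and pluripotent cells), DDIT4 (3.03 and 11.8 CPM), VEGFA (7.43 and 13.3 CPM), the angiogenic growth factor, and KDM3A (14.1 and 21.4 CPM), a histone demethylase. The pluripotent class has 65 cells, in which 26 UMIs of HK2 make 19.2 CPM, so such levels rest on few UMIs. Of 7 measured regulators 6 were higher and 0 lower at day 3 against day 1, HIF1A (147 and 93.6 CPM), MYC (46.1 and 26.2 CPM), ARNT, VHL, MYCN and LIN28B, and the median log2 ratio was 0.74. The background in that comparison was 31% of genes higher and 15% lower. The calls of these 2 lists use the library total, and scaling shifts them. At day 3 over day 1 the all-gene median was 0.27 with the total and −0.04 with TMM. For mesoderm over pluripotent cells of day 3 it was −0.04 with the total and 0.21 with TMM.

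**Figure D5:**
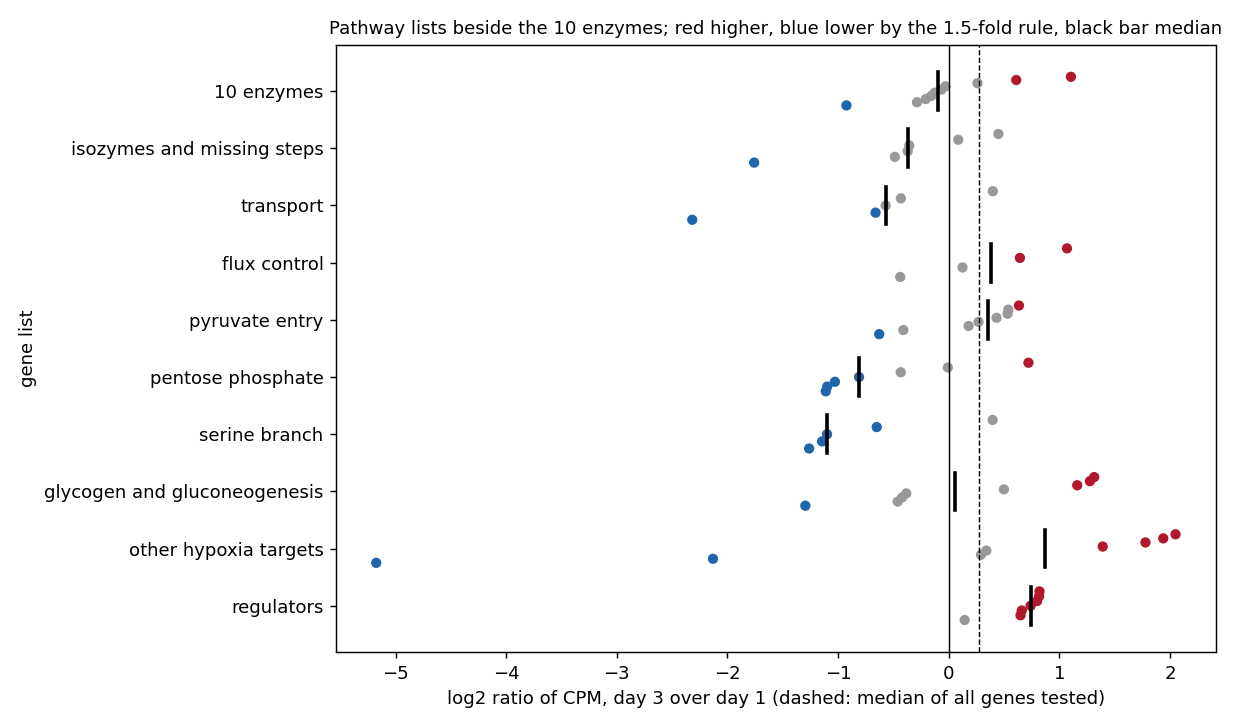
Log2 ratios of CPM at day 3 over day 1 for the 10 enzymes and for 9 lists of related genes, with 1 point per gene measured, red where called higher, blue where called lower and grey otherwise. Black bars are list medians, the solid line is 0 and the dashed line the median of all genes, 0.27. The serine (−1.10) and pentose phosphate (−0.81) medians are the lowest, and the 10 enzymes lie between −0.92 and 1.10.

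Levels of the abundant members varied across single cells, and the shape of that spread was not examined. Per-cell PKM had a median of 704 CPM and quartiles of 542 and 886 CPM at day 1, 413 (263 and 574) at day 2 and 653 (443 and 882) at day 3. Per-cell GAPDH had medians of 3803, 2574 and 2086 CPM at days 1, 2 and 3. In UMIs thinned to 5000 per cell, GAPDH, ENO1, PKM, LDHA and PGK1 correlated with the sum of the other 9 members at r = 0.36, 0.32, 0.30, 0.34 and 0.18 over 3499 cells of day 1, and at 0.13, 0.19, 0.09, 0.17 and 0.09 over 6675 cells of day 3. At day 1 HK1 (−0.13), HK2 (−0.08), GPI (−0.06) and PFKP (−0.03) had negative values, and the median over the 45 pairs of members was 0.0028. The cells of a day share a library and the counts per cell are small, so these values are a description.

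The joint pattern of the members over the 8 class-by-day groups was compared with that of 9499 other genes. The closest were GTPBP6 (Pearson r = 0.96), RRP9 (0.94), ILF2, GRWD1 and VARS (0.93 each), WBP2 and RNPS1 (0.92 each) and DIPK1B (0.91). They were picked for the highest r among many genes over few groups, so high values are partly a product of that choice. The groups share 3 libraries, and some of these profiles are nearly flat: ILF2 ranges over 0.20 and RRP9 over 0.99 on the log2 scale. The members themselves differed widely from their mean profile, from r = −0.64 for GPI to 0.84 for PKM and 0.76 for PFKP. Each member is itself part of that mean.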

How the data were processed

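The libraries were made on the 10x Genomics platform according to the labels. Raw UMI counts were deposited by the authors as 1 matrix for each library, produced by Cell Ranger 5.0.1 with hg38, per the submitters' processing notes. The sources used here do not state the read end captured, the use of strand or further filters. Kept barcodes had 1000 genes or more and a mitochondrial share of 20% or less, and 1212, 2688 and 599 barcodes of days 1, 2 and 3 failed this. Scrublet (scanpy 1.11.5) marked 0, 2 and 1 cells by its own threshold and so did not work. The top-scoring 144, 668 and 457 cells, at 0.8% per 1000 barcodes, were removed instead. Kept cells held 165615633, 119933715 and 137803496 UMIs.

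Counts were summed per library or class and divided by their total. Ratios have exact conditional binomial and levels exact Poisson intervals (scipy 1.17.1), which cover counting error only. The ratio routine was tested on simulated data. For classes, 34, 482 and 129 cells below 5000 UMIs were left out. TMM factors are from edgeR 4.0.16. Lower and higher calls, their alternatives and the genes named (the members, all measured isozymes, list genes past a call between libraries, and the 8 closest profiles) follow written rules. The members and lists were chosen with earlier results of these data known. Overlaps of genes are from GENCODE release 44, which may differ from the annotation the authors used. Pseudogene copies of GAPDH, ENO1, PGK1, PKM and LDHA could take reads from the genes. Some genes that these rules name are not reported here.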

Additional observations from a re-analysis of the deposited data

Results flagged for a closer look

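PFKP, the platelet-type phosphofructokinase, had log2 ratios of mesoderm-class over pluripotent-class cells of opposite sign at 2 days, each with an interval that excludes 1. The ratio was −0.37 at day 2 and 0.56 at day 3. The difference between the days was not tested.

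PKM, the pyruvate kinase, had log2 ratios of day 3 over day 2 of opposite sign between classes. They were 0.36 in streak cells and 0.43 in mesoderm cells but −0.31 in pluripotent cells, the last from the 65 cells of day 3. The difference between the classes was not tested.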

How the results depend on the processing

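No paired analysis was possible because each day is 1 library, so the days share fewer than 2 replicate numbers. Of 19 member calls over all comparisons, 18 held with TMM, 15 with median of ratios, 17 with a total without mitochondrial and ribosomal protein genes, 18 with at most 10% mitochondrial UMIs, 18 with high doublet scores kept, 18 with the mean of per-cell CPM and 19 with no minimum CPM. All 7 calls between whole libraries held with all deposited barcodes. Of 12 class calls 9 held without thinning and 9 after thinning to 10000 UMIs. No call changed sign under any of these.

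The number of members called moved as follows. For day 2 over day 1, lower calls numbered 3 with TMM, median of ratios or the reduced total, and 2 with all barcodes or the per-cell mean, against 1. For day 3 over day 2, higher calls numbered 2 with the reduced total or at most 10% mitochondrial UMIs, against 3. For day 3 over day 1, higher calls numbered 1 with TMM, median of ratios or the reduced total, against 2, and lower calls 2 with TMM, against 1. Within pluripotent cells, day 2 over day 1 gave 4 lower calls with TMM and 2 with median of ratios or the reduced total, against 1, and day 3 over day 2 gave 0 with doublets kept or the per-cell mean, against 1. Within streak cells, day 2 over day 1 gave 2 lower calls with TMM, median of ratios, the reduced total, no thinning or 10000 UMIs, against 1, and 0 higher calls with median of ratios, against 1. Within streak cells, day 3 over day 2 gave 1 higher call with median of ratios and 0 with no thinning or 10000 UMIs, against 2. For streak over pluripotent cells, the lower call of day 1 became 0 with median of ratios, and the higher call of day 3 became 0 with no thinning or 10000 UMIs. For mesoderm over pluripotent cells of day 3, higher calls numbered 5 with TMM or median of ratios and 3 with no thinning, against 2, and lower calls 1 with at most 10% mitochondrial UMIs, doublets kept or the per-cell mean, against 0. For mesoderm over streak cells of day 3, higher calls numbered 3 with no thinning and 2 after thinning to 10000 UMIs, against 0. The cause was not tested.

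Requiring TBXT with MIXL1 for streak and 2 MESP1 UMIs for mesoderm kept all 9 calls with a value. It left fewer than 50 streak cells at day 1, so comparisons with those have no value. Depth limits HK2 and ALDOA most, with 26 and 22 UMIs in the pluripotent cells of day 3.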
